A study of Danio rerio with 4 samples.

Results

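The interleukin, tumour necrosis factor (Tnf) and colony-stimulating factor (Csf) genes of the zebrafish fin were compared between regenerating and uninjured tissue. They were chosen by name: every gene in the count tables whose zebrafish Ensembl symbol is il followed by a digit, begins with tnfsf, tnfrsf or csf, or equals tnfa or tnfb, in any case, with il17rd, il6st, csf1ra, csf1rb and csf3r left out. The rule took 67 of the 32434 genes in the tables and used no measured value. They comprise 35 ligand genes, 31 receptor genes and il4i1, which has an interleukin name but encodes an amino acid oxidase. All 67 had at least 1 count, and 56 passed the filter on low counts. Symbols are printed as the name table gives them, and 18 further gene IDs whose symbols fit the rule, il1b, il6 and csf3a among them, do not occur in the count tables under those IDs and were not analysed here.

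Interleukins, Tnf ligands and colony-stimulating factors are small signals that cells release or display on their surface. Most interleukin receptors are chains that pair on the cell surface and act through Jak kinases and Stat transcription factors. Receptors of Il1, Il17 and many Tnf ligands instead act through adaptor proteins and Nf-kB. In an injured fin such signals are known to call in and steer neutrophils and macrophages, and in zebrafish Il11 signalling through its receptor is known to be needed for fin regrowth. Most of the roles named below are known from mammals and are given as background.

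The regenerating group consisted of fins of wild-type fish, strain EK, that had been cut with razor blades to 50% of their length and were collected after 4 days. Uninjured fins of the same strain served as the only control, so that no group of fins was cut and collected at another time. Each group had 2 libraries, each made from the RNA of 10 fins. Whether different fish went into the 2 pools of a group is not stated in the labels, and the tests speak only of differences among these pools, whose spread may be technical.

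The 4 libraries held 34290386 to 48247042 counts. Within a group the pools were not repeats of each other at the level of sampling error: the chi-square of their counts over genes was 18.5 (regenerating) and 39.2 (uninjured) times its degrees of freedom. Values below are in CPM, each count set against its library's total, here after scaling by trimmed mean of M values (TMM). CPM is no level per transcript length, so that levels of different genes are not compared. Of 16 tested genes of the fin mesenchyme and blastema list, 15 were higher in regenerating fins, 93.8% beside 29.5% of all genes tested. Of these 15, lepb and an FGF20 gene (ENSDARG00000086070) passed the filter on low counts only through the regenerating pools. All 13 genes of the epidermis list passed the filter, of which 7 fell, 4 rose and 2 did not pass. Most of the epidermis list's summed level, 34069 and 30435 CPM in regenerating and 79830 and 66819 CPM in uninjured fins, came from krt5, which did not pass (adjusted p = 0.108), and among those that rose was krt18a.1 (log2 2.70 ± 0.18). In whole fins, fewer cells of a type and less RNA per cell cannot be told apart.

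Regenerating fins had lower levels of 10 of 15 tested interleukin ligand genes and of 12 of 19 tested interleukin receptor genes, while il11a, tnfrsf9a and TNFRSF19 rose. Of the 56 genes tested, 38 were called, 9 higher and 29 lower in regenerating fins. A gene was called at an adjusted p under 0.05 from edgeR's quasi-likelihood test, with the Benjamini-Hochberg adjustment taken over all 25594 genes tested. That is 67.9% called, beside 59.6% of all genes tested, 16.1% higher beside 29.5%, and 51.8% lower beside 30.1%. Their median log2 fold change, regenerating over uninjured, was -0.57, beside -0.025 over all genes tested. Among the 19 tested interleukin receptor genes 63.2% were called, near the 59.6% of all genes tested. Every one of these calls was lower, 63.2% beside 30.1%, with 0 higher beside 29.5%. The lower calls of the ligand genes il1fma, IL10, il17a/f3, il7, il13 and il4 were lost in some alternative settings given below. So were those of the receptor genes IL1RAPL2, il2rga and il21r.2. The receptor gene il21r.1 did not pass in this fit (adjusted p = 0.0522) but was called higher in several of the alternative settings. IL10 and il17a/f3 passed the filter on low counts only through the uninjured pools, where they were high. A call with a change of at least 2-fold was made for 24 of the 56, 5 higher and 19 lower, where 31.1% of all genes tested had such a call, 15.0% higher and 16.1% lower. The pools of the groups did not overlap for 45 of the 56 genes, beside 81.3% of all genes tested. Scaling by total counts alone raised the median of all genes by 0.21 and gave 14 higher and 23 lower genes here, in place of 9 and 29. Over all genes this scaling called 8941 higher and 5524 lower, in place of 7549 and 7694.

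**Figure D1:**
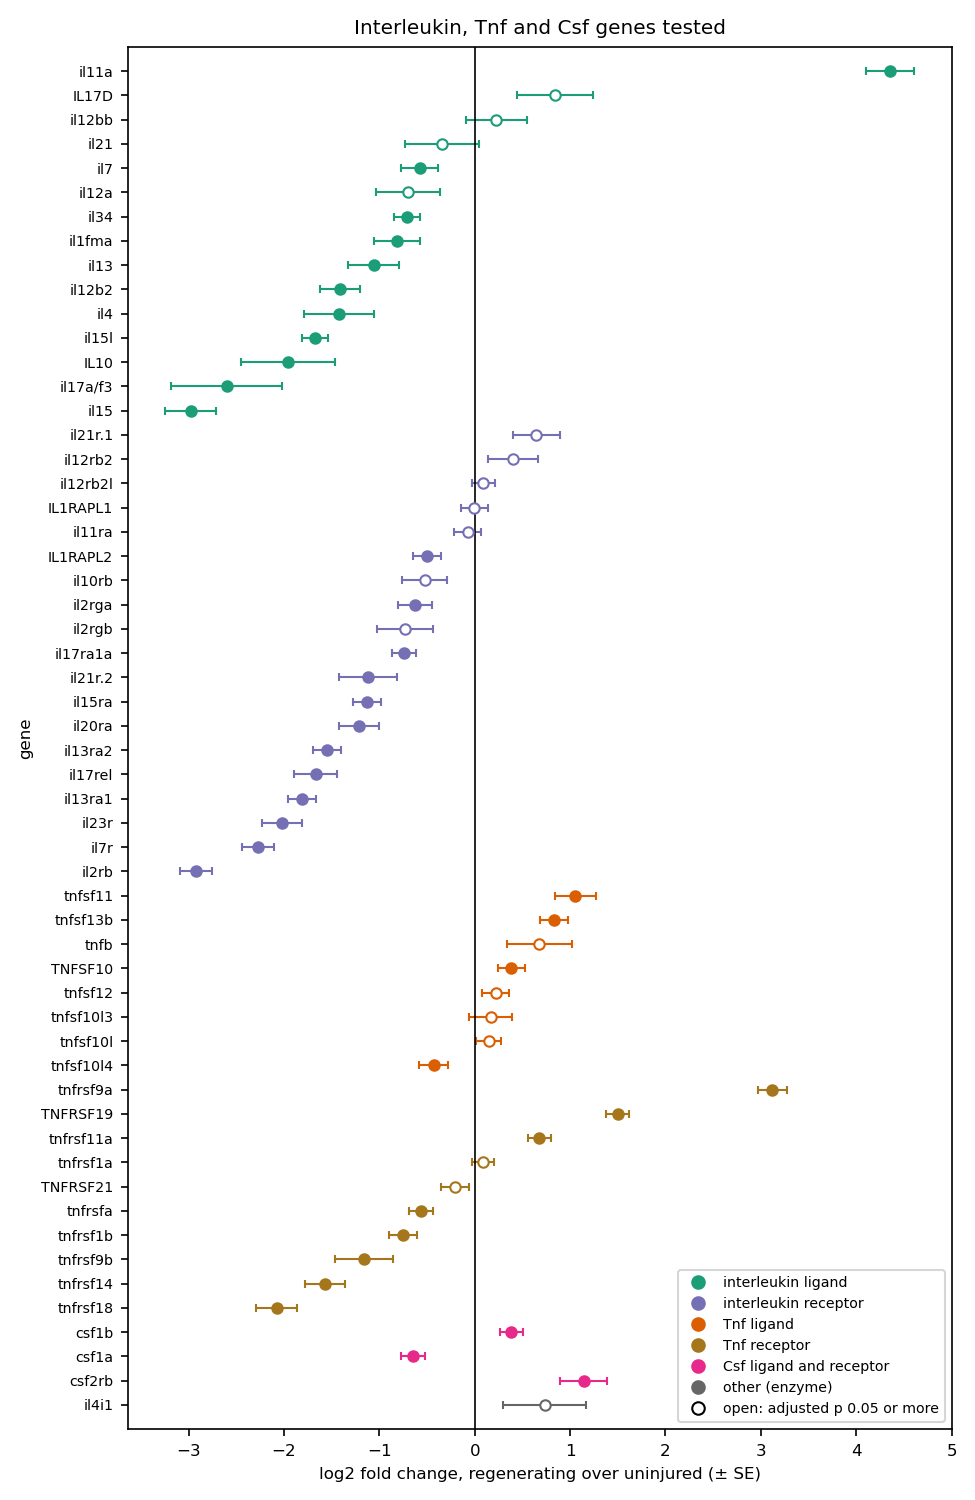
Log2 fold change (regenerating over uninjured) with its standard error for the 56 tested genes, ordered by role; filled points passed the adjusted threshold and open points did not. The interleukin receptors (purple) hold 12 called genes, all to the left of 0, while il11a at 4.35 and tnfrsf9a at 3.12 lie farthest to the right.

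Among the 23 interleukin ligand genes, 15 were tested, of which 10 fell, 1 rose and 4 did not pass. That is 66.7% lower beside 30.1% of all genes tested, and 6.67% higher beside 29.5%. Of the 10, IL10 and il17a/f3 passed the filter on low counts only through the uninjured pools. The calls of il1fma, IL10, il17a/f3, il7, il13 and il4 were lost in some alternative settings. The one that rose was il11a (ENSDARG00000037859), which encodes a cytokine of the gp130 family. It stood at 6.71 and 5.83 CPM in the regenerating pools and at 0.367 and 0.235 CPM in the uninjured pools. The groups were far apart, and the uninjured values rested on only 14 and 8 counts, against 336 and 311 in regenerating fins. The log2 fold change was 4.35 ± 0.26 (SE), a 20.4-fold difference (edgeR quasi-likelihood, adjusted p = 7.11e-06), and it ranged from 4.11 to 4.73 over the 4 fits that each dropped 1 library. By size of increase il11a ranked at place 107 of the 25594 genes tested. Its paralog il11b had 11 and 6 counts in regenerating and 3 and 0 counts in uninjured fins and was not tested. The gene of the Il11 receptor chain, il11ra, stood at 7.73 and 9.03 CPM in regenerating and 8.89 and 8.77 CPM in uninjured fins. The il11ra groups overlapped, with a log2 fold change of -0.075 ± 0.15 that did not pass (adjusted p = 0.675) and was 0.14 with scaling by total counts and 0.039 without regenerating replicate 1. The shared signalling chain gene il6st was not analysed here.

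The broadest decrease was in the genes of Il4, Il7, Il13, Il15 and Il21 and their receptor chains. Of these 15 genes, all tested, 12 fell, 0 rose and 3 missed the threshold, which is 80.0% lower beside 30.1% of all genes tested. Their median log2 fold change was -1.13. In mammals these cytokines keep lymphocytes alive, make them divide or shape their responses, and most of them signal through the common gamma chain. il15 (ENSDARG00000052361), a growth factor for T and natural killer (NK) cells, stood at 3.88 and 5.49 CPM in regenerating and 27.99 and 46.01 CPM in uninjured fins. Both groups were spread, the uninjured pools by 1.64-fold, yet the nearest pools of the 2 groups were still far apart. The log2 fold change was -2.98 ± 0.26, which is 7.89-fold lower (adjusted p = 4.36e-05), with a range from -3.29 to -2.54 without 1 library at a time. Transcripts of the related fish gene il15l went from 14.6 CPM in both uninjured pools to 4.55 and 4.57 CPM, a log2 fold change of -1.68 ± 0.14 (adjusted p = 2.84e-05), with pools of a group almost equal.

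The receptor chains of this system fell by different amounts. il2rb (ENSDARG00000075720), the beta chain that Il2 and Il15 receptors share, was at 2.70 and 2.81 CPM in regenerating and 23.4 and 18.4 CPM in uninjured fins, with groups far apart. The log2 fold change of -2.92 ± 0.17 (7.59-fold lower, adjusted p = 6.28e-06) had the smallest adjusted p of the 29 genes that fell. il15ra, which presents Il15, was lower by 2.18-fold (log2 -1.13 ± 0.15, adjusted p = 2.75e-04), with 4.07 and 4.33 CPM against 9.10 and 9.24 CPM. The common gamma chain gene il2rga showed a smaller decrease, from 6.51 and 5.93 CPM to 4.53 and 3.52 CPM. Its log2 fold change of -0.63 ± 0.18 passed (adjusted p = 0.0157), but not without regenerating replicate 2 (adjusted p = 0.129), without uninjured replicate 1 (0.0503) or with scaling by total counts (0.101). Its paralog il2rgb, at 0.619 and 0.637 CPM against 1.26 and 0.822 CPM, did not pass (adjusted p = 0.0589).

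il7r (ENSDARG00000078970), the receptor chain of the lymphocyte survival factor Il7, stood at 2.62 and 3.34 CPM in regenerating and 15.1 and 13.7 CPM in uninjured fins. The receptor gene was thus 4.83-fold lower (log2 -2.27 ± 0.17, adjusted p = 2.05e-05), with groups far apart. The ligand gene il7 was at 3.66 and 4.70 CPM against 7.004 and 5.458 CPM, a smaller difference. Its log2 fold change of -0.58 ± 0.20 passed (adjusted p = 0.0328) but was lost without regenerating replicate 1 (0.210) and without uninjured replicate 1 (0.166), with scaling by total counts (0.187) and with DESeq2 (0.0537).

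Il4 and Il13 drive type 2 immune responses. il13ra1, a signalling chain for Il13, was at 15.8 and 17.5 CPM in regenerating and 64.4 and 52.7 CPM in uninjured fins, and il13ra2, which in mammals binds Il13 mainly as a decoy, at 9.77 and 8.13 CPM against 27.3 and 25.1 CPM. Both receptor genes fell with groups well apart, by 1.81 ± 0.14 and 1.55 ± 0.14 on the log2 scale (adjusted p = 2.61e-05 and 5.23e-05). The ligand genes il4 and il13 rested on far fewer reads. il4 had 15 and 13 counts in regenerating (0.300 and 0.244 CPM) and 34 and 19 in uninjured libraries (0.892 and 0.558 CPM). il13 had 35 and 36 counts (0.699 and 0.675 CPM) against 64 and 40 (1.68 and 1.17 CPM). il4 had a log2 fold change of -1.42 ± 0.37 (adjusted p = 0.00976), lost without regenerating replicate 2 (0.0551), without uninjured replicate 1 (0.0962) and with DESeq2 (0.0539). il13 had one of -1.06 ± 0.27 (adjusted p = 0.00927), lost without uninjured replicate 1 (0.0768).

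The Il21 genes did not share 1 pattern. The ligand gene il21 had 12 to 22 counts in every library and did not pass (adjusted p = 0.475). The receptor gene il21r.2 had a log2 fold change of -1.12 ± 0.30, from 0.839 and 0.763 CPM to 0.419 and 0.319 CPM (adjusted p = 0.0127). That call was lost without regenerating replicate 2 (0.0910), without uninjured replicate 1 (0.0630) and with DESeq2 (0.0950). For il21r.1, at 7.95 and 9.69 CPM in regenerating and 7.16 and 4.08 CPM in uninjured fins, the log2 fold change of 0.65 ± 0.25 did not pass (adjusted p = 0.0522). Another 6 settings gave il21r.1 an adjusted p of 0.00157 to 0.0488, so that its place at the threshold depended on the setting, and without uninjured replicate 1 its log2 fold change was 1.12. In the RefSeq annotation of GRCz12tu, il21r.1 and il21r.2 are neighbouring protein-coding genes.

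**Figure D2:**
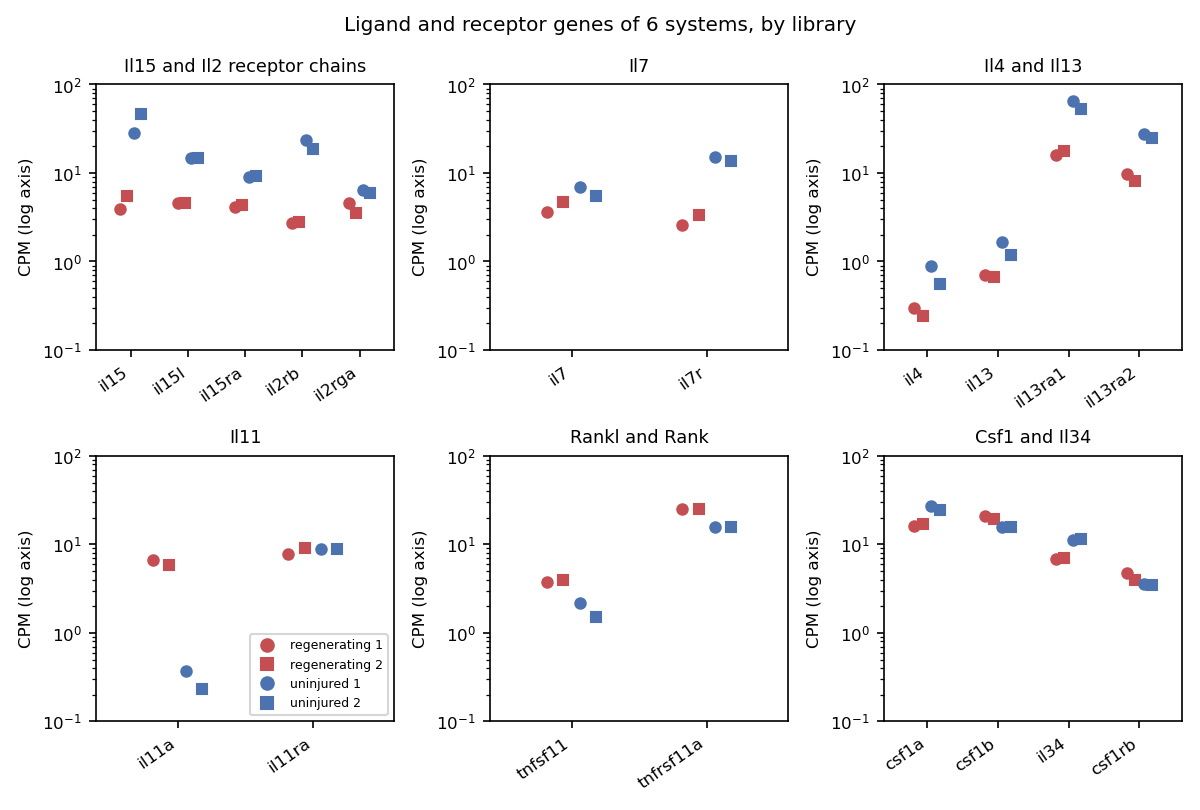
TMM-scaled CPM (log axis) of ligand and receptor genes in 6 signalling systems, 1 point per library, with regenerating pools in red and uninjured pools in blue. In the Il15 panel every red point lies below every blue point of the same gene, in the Il11 panel the ligand separates and the receptor does not, and in the Rankl and Rank panel both genes are higher in regenerating fins.

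Most tested lymphocyte markers were lower as well, but a decrease was not particular to lymphocyte lists. In the dendritic cell list, which shares CCR7 with the T and NK cell list, 6 of 9 tested genes fell and 1 rose. The median log2 fold change of the dendritic cell list was -0.89. In the epidermis list 7 of 13 fell and 4 rose, whereas in the endothelium list 8 of 10 rose and 1 fell. Of 18 tested genes in the T and NK cell list, 11 fell and 2 rose, while 5 did not pass. That is 61.1% lower and 11.1% higher, beside 30.1% and 29.5% of all genes tested. Among the 11, nkl.4 (6 and 9 counts against 23 in both uninjured pools) passed the filter on low counts only through the uninjured pools. The direction of nkl.4 among the tested genes was thus partly set by the filter. The median log2 fold change of this list was -0.96. Among those that fell were ZAP70, a kinase gene of T cell receptor signalling (-1.23 ± 0.18), prf1.1, a perforin gene of killer cells (-2.37 ± 0.33), and CCR7, a homing receptor gene (-2.30 ± 0.23). The co-receptor genes cd4-1 and cd8a had log2 fold changes of -0.17 ± 0.16 and -0.34 ± 0.21 that did not pass (adjusted p = 0.383 and 0.188). That of cd4-1 was 0.044 with scaling by total counts. The co-receptor gene cd8b was among those that fell (log2 -1.02 ± 0.30, adjusted p = 0.0187). TCF7 (log2 3.12 ± 0.15) and RAG2 (1.44 ± 0.29) were the 2 that rose, and the rise of TCF7 was the largest change of the list. The summed level of the list was 328 and 311 CPM in regenerating and 359 and 309 CPM in uninjured fins, of which thy1 alone made up 251 to 285 CPM in each library. RAG1 had 3 and 2 counts in the regenerating and 0 in both uninjured libraries, and was not tested. Of 10 B cell list genes, 7 fell (70.0%, beside 30.1% of all genes tested), 0 rose and 3 missed the threshold. Of the 7, cd37 and igic1s1 passed the filter on low counts only through the uninjured pools. The B cell list had a median of -1.25 and a summed level of 48.5 and 49.4 CPM against 93.1 and 101 CPM. The part of these marker levels in the decrease of the receptor genes was not tested.

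**Figure D3:**
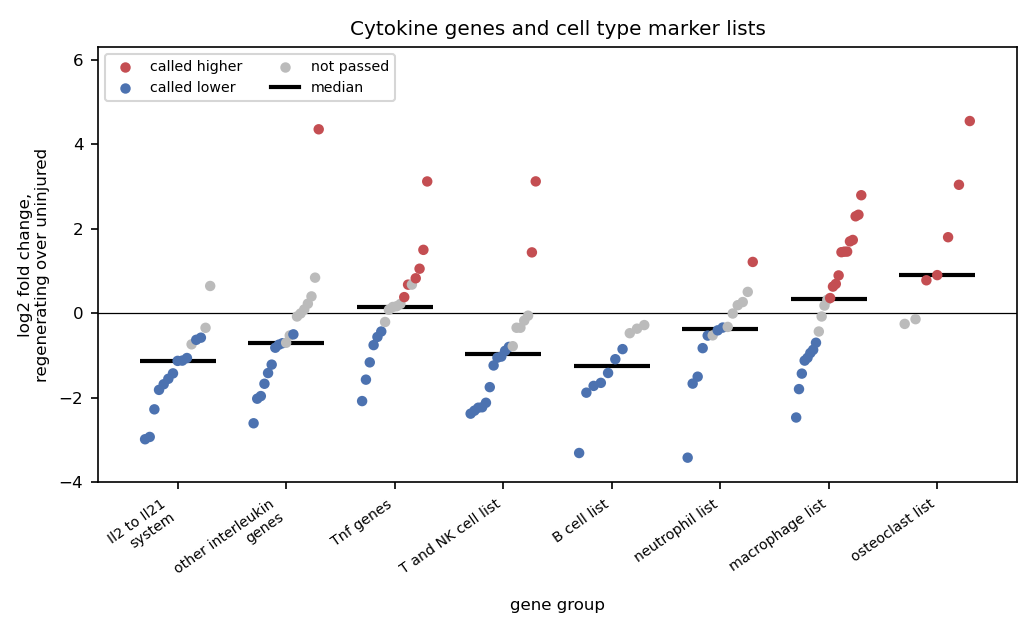
Log2 fold change (regenerating over uninjured) of each tested gene in 3 groups of the cytokine and receptor genes and in 5 cell type marker lists; red points were called higher, blue points lower, grey points did not pass, and bars are medians. The Il2 to Il21 system, the 15 genes of Il4, Il7, Il13, Il15 and Il21 and their receptor chains, has a median of -1.13, the T and NK cell list one of -0.96 and the B cell list one of -1.25, while the osteoclast list has one of 0.90.

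Cytokines of the Il12 and Il23 system pair an alpha with a p40 subunit and steer T cells towards type 1 and Il17 responses. Of 6 tested genes 2 fell and 4 did not pass, a share of 33.3% lower beside 30.1% of all genes tested. il12b2, a p40 subunit gene, was at 1.74 and 1.33 CPM in regenerating and 4.41 and 3.76 CPM in uninjured fins (log2 -1.41 ± 0.21, adjusted p = 5.82e-04). Of the other p40 genes, il12bb had 36 and 33 counts against 17 and 24 and did not pass (log2 0.23 ± 0.32, adjusted p = 0.565), and il12ba had 3 or 4 counts in every library and was not tested. il23r, the receptor chain of Il23, was at 1.14 and 1.41 CPM, against 4.67 and 5.69 CPM in uninjured fins, with a log2 fold change of -2.02 ± 0.21 (adjusted p = 8.53e-05). For il12rb2, which neighbours il23r in the RefSeq annotation of GRCz12tu, the pools overlapped at 2.50 and 1.63 CPM against 1.71 and 1.41 CPM (log2 0.40 ± 0.26, adjusted p = 0.219). il12rb2l also overlapped, at 43.8 and 40.8 CPM against 41.1 and 38.3 CPM (adjusted p = 0.538), and il12a did not pass (adjusted p = 0.104).

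Il17 cytokines act on epithelial cells in barrier defence, and their genes were near the limit of detection. Only 2 reads of il17a/f3 were counted in each regenerating pool, against 10 and 8 in the uninjured pools, and its log2 fold change of -2.60 ± 0.58 (adjusted p = 0.00479) was lost with DESeq2 (adjusted p = 0.0581). That gene passed the filter on low counts only through the uninjured pools, so its direction among the tested genes was partly set by the filter. il17a/f1, il17a/f2 and il17c, with 0 to 7 counts in each library, were not tested, and IL17D, with 29 and 20 counts against 9 and 10, did not pass (log2 0.84 ± 0.40, adjusted p = 0.0992). The receptor genes held more reads. il17ra1a stood at 13.003 and 13.417 CPM against 22.1 CPM in both uninjured pools (log2 -0.74 ± 0.12, adjusted p = 9.62e-04). il17rel, an Il17 receptor E-like gene, was at 1.16 and 1.46 CPM against 4.72 and 3.61 CPM (-1.67 ± 0.22, adjusted p = 3.32e-04). Both receptor genes were thus lower with pools that did not overlap.

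In the Il10 family the ligand genes were also scarce. IL10 passed the filter on low counts only through the uninjured pools, so its direction among the tested genes was partly set by the filter as well. IL10, which restrains inflammation, had 3 and 6 counts in the regenerating pools against 14 and 11 in the uninjured pools (log2 -1.96 ± 0.49, adjusted p = 0.00872), a call lost without regenerating replicate 1 (0.0676), without uninjured replicate 1 (0.0545) and with DESeq2 (0.0742). il19l, il22 and il26 had 0 to 9 counts per library, as did il22ra2, the gene of a soluble Il22 binding protein, and none of the 4 was tested. il20ra, a chain of the receptors of this family on epithelial cells, was at 7.49 and 10.2 CPM in regenerating and 24.2 and 16.8 CPM in uninjured fins (-1.21 ± 0.21, adjusted p = 0.00138). il10rb, the chain that Il10 and Il22 receptors share, was at 22.1 and 20.6 CPM against 39.4 and 21.9 CPM. Uninjured replicate 1 thus stood apart from the other 3 libraries for il10rb, whose log2 fold change of -0.53 ± 0.24 did not pass (adjusted p = 0.0892), was -0.036 without that library and -0.86 without uninjured replicate 2 (adjusted p = 5.60e-04).

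The Il1 family is represented by il1fma, a fish-specific ligand gene, at 1.099 and 0.862 CPM against 1.57 and 1.88 CPM. Its log2 fold change of -0.81 ± 0.24 passed (adjusted p = 0.0183), but not without regenerating replicate 2 (0.122), without uninjured replicate 2 (0.0905), with scaling by total counts (0.0850) or with DESeq2 (0.0791). IL1RAPL1 and IL1RAPL2 encode receptor-like proteins known from neuronal synapses. IL1RAPL1 did not differ beyond its error (log2 -0.0038 ± 0.14, adjusted p = 0.983). IL1RAPL2 had a log2 fold change of -0.50 ± 0.15 (adjusted p = 0.0194), lost without regenerating replicate 1 (0.187), without uninjured replicate 2 (0.0649) and with scaling by total counts (0.204).

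**Figure D4:**
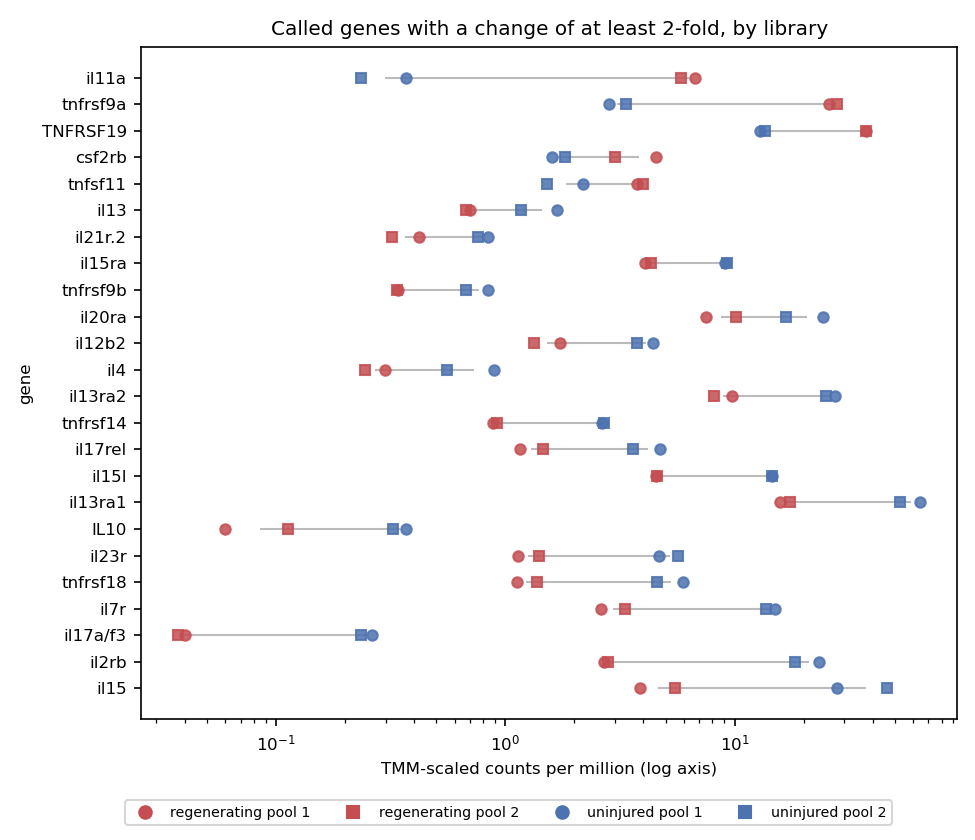
TMM-scaled CPM (log axis) in each library for the 24 genes that passed the adjusted threshold with a change of at least 2-fold, ordered by log2 fold change; red marks regenerating and blue uninjured pools, and the grey line joins the group means. The 5 genes from il11a to tnfsf11 have both red points to the right of both blue points, and the 19 below them have the opposite order.

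The Tnf ligand genes that rose did so by at most 2.08-fold. Of 10 genes 8 were tested, of which 3 rose, 1 fell and 4 did not pass. That is 50.0% called, beside 59.6% of all genes tested, 37.5% higher beside 29.5%, and 12.5% lower beside 30.1%. tnfsf11 (ENSDARG00000068141) encodes Rankl, the signal that turns macrophage precursors into osteoclasts, and stood at 3.76 and 3.97 CPM in regenerating and 2.18 and 1.53 CPM in uninjured fins. It was 2.08-fold higher (log2 1.05 ± 0.21, adjusted p = 0.00303). tnfsf13b, whose product Baff sustains B cells, was at 11.1 and 12.1 CPM against 6.01 and 7.07 CPM (log2 0.83 ± 0.15, adjusted p = 0.00163). Both rose with pools that did not overlap, and both calls held without each library in turn.

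The Trail-like ligand genes, named for a death signal, stayed within small differences. TNFSF10, at 47.4 and 47.1 CPM against 40.4 and 32.1 CPM, had a log2 fold change of 0.38 ± 0.14 (adjusted p = 0.0436). That call was lost without any one of 3 libraries, regenerating replicates 1 and 2 and uninjured replicate 2, with adjusted p of 0.139, 0.129 and 0.119, and with a filter at 1 CPM (0.0536). tnfsf10l4 had a log2 fold change of -0.43 ± 0.15 (adjusted p = 0.0360), lost without any one library (0.0619 to 0.167), with scaling by total counts (0.364), with DESeq2 (0.112) and with a replicate block (0.0535). The levels of tnfsf10l4 were 4.65 and 4.50 CPM in regenerating and 6.09 and 6.25 CPM in uninjured fins. tnfsf10l and tnfsf10l3 overlapped between groups (adjusted p = 0.355 and 0.543). tnfsf12, the Tweak gene, had a log2 fold change of 0.22 ± 0.14 (adjusted p = 0.205), which passed with scaling by total counts (0.0287) and without uninjured replicate 1 (0.0312).

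The genes of Tnf itself had low counts in both groups. tnfa (ENSDARG00000009511) had 15 and 2 counts in the regenerating pools and 8 and 7 counts in the uninjured pools, and was not tested. The regenerating pools differed from each other more than from the uninjured ones. tnfb (ENSDARG00000013598) stood at 2.58 and 1.78 CPM in regenerating and 1.81 and 0.880 CPM in uninjured fins. The groups overlapped, and the log2 fold change of 0.68 ± 0.34 did not pass (adjusted p = 0.114). It passed without uninjured replicate 1 (log2 1.305, adjusted p = 0.0120), with a replicate block (0.0304) and with scaling by total counts (0.0242). tnfsf13, the April gene, had 2 to 4 counts in every library.

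All 10 Tnf receptor genes were tested, of which 3 rose, 5 fell and 2 did not pass. The share that rose, 30.0%, was near the 29.5% of all genes tested, and 50.0% fell, beside 30.1%. tnfrsf9a (ENSDARG00000060498) belongs to the receptor family that in mammals includes the T cell co-stimulator 4-1BB. It was at 25.8 and 27.9 CPM in regenerating and 2.83 and 3.35 CPM in uninjured fins, with pools of a group close together. The difference was 8.69-fold (log2 3.12 ± 0.15, adjusted p = 3.08e-06), with 1291 and 1487 counts against 108 and 114, and ranged from 3.01 to 3.27 without 1 library at a time. Its paralog tnfrsf9b had 17 and 18 counts against 32 and 23. For tnfrsf9b the log2 fold change was -1.16 ± 0.31 (adjusted p = 0.0112), lost without either regenerating replicate (0.0556 each), without uninjured replicate 1 (0.0796) and with DESeq2 (0.0913).

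TNFRSF19 (ENSDARG00000041869), also known as Troy, a receptor of epithelial and nervous tissue, was at 37.6 and 37.5 CPM in regenerating and 12.9 and 13.6 CPM in uninjured fins. It was 2.83-fold higher (log2 1.50 ± 0.12, adjusted p = 2.74e-05). tnfrsf11a, the gene of Rank, the receptor of Rankl on osteoclast precursors, was at 25.2 CPM in both regenerating pools and 15.8 and 15.7 CPM in the uninjured pools (log2 0.68 ± 0.12, adjusted p = 0.00141). Ligand and receptor of the Rank system thus both had higher levels in regenerating fins. Of the 7 genes of the osteoclast list, 5 rose (71.4%, beside 29.5% of all genes tested) and 0 fell in the same libraries. The list's summed level was 902 and 738 CPM against 318 and 296 CPM, and the 5 were each higher in regenerating replicate 1. Of the 5, ocstamp (54 and 19 counts against 2 and 0) passed the filter only through the regenerating pools. CTSK, the osteoclast protease cathepsin K, rose by 1.80 ± 0.17 on the log2 scale, while TCIRG1 and CALCR did not pass. Whether the cells carrying these markers account for the tnfrsf11a level was not tested.

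The 5 Tnf receptor genes that fell include tnfrsf18 and tnfrsf14, whose mammalian counterparts act on lymphocytes, and tnfrsf9b, given above. Genes of this kind went both ways, since tnfrsf9a, whose family in mammals includes 4-1BB, rose by 8.69-fold. tnfrsf18, the gene of the T cell co-stimulator Gitr, was at 1.12 and 1.37 CPM against 5.93 and 4.58 CPM, 4.22-fold lower (log2 -2.08 ± 0.22, adjusted p = 9.09e-05). tnfrsf14, known as Hvem, was at 0.879 and 0.918 CPM against 2.65 and 2.70 CPM (log2 -1.57 ± 0.21, adjusted p = 2.93e-04). Both tnfrsf18 and tnfrsf14 had pools far apart. The death receptor gene tnfrsfa had a log2 fold change of -0.56 ± 0.13 (adjusted p = 0.00506), lost with scaling by total counts (0.0936). The 2 receptors of Tnf itself differed in their calls: tnfrsf1a, at 45.2 and 47.8 CPM against 43.2 and 44.6 CPM, did not pass (adjusted p = 0.557), and tnfrsf1b, at 4.57 and 4.18 CPM against 7.55 and 7.19 CPM, fell by 0.75 ± 0.15 on the log2 scale (adjusted p = 0.00291). TNFRSF21, the death receptor 6 gene, did not pass (adjusted p = 0.251), but had a log2 fold change of -0.37 without uninjured replicate 1 (adjusted p = 0.0353) and of 0.017 without uninjured replicate 2.

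The 3 ligand genes of the macrophage receptor Csf1r split in direction. csf1a (ENSDARG00000075343) was at 16.14 and 16.96 CPM in regenerating and 27.4 and 24.6 CPM in uninjured fins, and il34, whose product is an alternative ligand of the same receptor, at 6.83 and 7.08 CPM against 11.2 and 11.5 CPM. Both fell, by 0.65 ± 0.13 and 0.71 ± 0.13 on the log2 scale (adjusted p = 0.00235 and 0.00217). csf1b (ENSDARG00000068263), at 21.2 and 19.5 CPM against 15.6 and 15.5 CPM, had a log2 fold change of 0.39 ± 0.12 (adjusted p = 0.0258), lost without regenerating replicate 1 (0.171) and without regenerating replicate 2 (0.0676). The receptor gene csf1rb, outside the rule, was at 4.79 and 3.99 CPM against 3.54 and 3.49 CPM and did not pass (log2 0.32 ± 0.17, adjusted p = 0.146), and CSF3R, the neutrophil growth factor receptor gene, did not pass either (log2 0.51 ± 0.23, adjusted p = 0.0857). csf2rb, the shared beta chain of a group of Csf and interleukin receptors on myeloid cells, was at 4.554 and 2.998 CPM against 1.60 and 1.82 CPM, 2.21-fold higher (log2 1.14 ± 0.25, adjusted p = 0.00413). Regenerating replicate 1 was the higher of its group by 1.52-fold, and without it the log2 fold change was 0.82 (adjusted p = 0.0318).

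Macrophage markers did not move together in these libraries. Of the 24 genes of that list, 12 rose and 8 fell, while 4 did not pass. That is 50.0% higher and 33.3% lower, beside 29.5% and 30.1% of all genes tested. The list's median log2 fold change was 0.34. The complement genes c1qa, c1qb and c1qc and the scavenger receptor gene marco rose by 1.45 to 2.33 on the log2 scale, while cd74a and cd74b, which encode the class II invariant chain, fell by 1.79 ± 0.24 and 1.43 ± 0.18. All 12 genes that rose were higher in regenerating replicate 1 than in replicate 2, by 1.14-fold to 1.61-fold with a median of 1.53-fold, among them SPI1 at 19.9 and 12.6 CPM and marco at 42.5 and 26.7 CPM. The same library was the higher one for csf2rb and, as given below, for il4i1. This order was not particular to macrophage markers. Regenerating replicate 1 was also the higher for 6 of 7 osteoclast genes and 10 of 10 tested endothelium genes. The same held for 13 of 16 of the fin mesenchyme and blastema list and 9 of 11 osteoblast genes. The size of the difference varied, however. Among genes that rose, the median ratio of the 2 pools in TMM-scaled CPM was 1.53 for osteoclast and 1.26 for endothelium genes. It was only 1.06 for the fin mesenchyme and blastema list and 1.06 for osteoblast genes. Regenerating replicate 1 was the higher for 11 of 18 T and NK cell, 8 of 14 neutrophil and 7 of 13 epidermis genes. The counts were 4 of 9 for the dendritic cell list, 3 of 8 for mast cells and eosinophils, and 0 of 5 for red blood cells. For the B cell list regenerating replicate 1 was the higher for 3 of 10, and cd74a stood at 485 and 517 CPM. The share of all genes tested with this order was not determined. The macrophage list's summed level was 1426 and 1374 CPM in regenerating and 3652 and 2783 CPM in uninjured fins, most of it from cd74a and cd74b. In the neutrophil list 1 of 14 tested genes rose and 7 fell (4 lower without either regenerating replicate or with scaling by total counts), with a summed level of 204 and 185 CPM against 270 and 255 CPM. The neutrophil share called, 57.1%, was near the 59.6% of all genes tested, with 50.0% lower beside 30.1% and 7.14% higher beside 29.5%. Among those lower, the CXCR1 gene ENSDARG00000054975 (3 and 9 counts against 17 and 10) passed the filter on low counts only through the uninjured pools. The part of the macrophage and neutrophil markers in the csf2rb, il4i1 and other Csf results was not tested.

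Within a library the share of 1 gene in the reads of a pair does not depend on depth or scaling. Pairs were chosen after their values were seen, so the shares are a description, and the 95% exact binomial intervals cover counting error only. Of the reads of csf1a and csf1b together, csf1b held 56.7% (54.4 to 59.0) and 53.4% (51.2 to 55.7) in the regenerating pools. In the uninjured pools it held 36.2% (33.9 to 38.6) and 38.7% (36.1 to 41.4), below both regenerating intervals. The share of il15 in the reads of il15 and il15l was 46.0% and 54.6% in regenerating and 65.7% and 75.9% in uninjured fins. For il12rb2 and il23r, the il12rb2 share was 68.7% (61.4 to 75.3) and 53.7% (45.7 to 61.6) in regenerating and 26.7% (21.3 to 32.8) and 19.8% (15.0 to 25.4) in uninjured fins. il12bb held 29.3% and 31.7% of the reads of il12bb and il12b2 in regenerating and 9.19% and 15.8% in uninjured fins. By contrast the il13ra1 share of il13ra1 and il13ra2 was 61.9% and 68.3% against 70.2% and 67.7%, with overlapping groups, and that of il2rga in the il2rga and il2rgb reads was 88.0% and 84.7% against 83.8% and 87.8%.

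**Figure D5:**
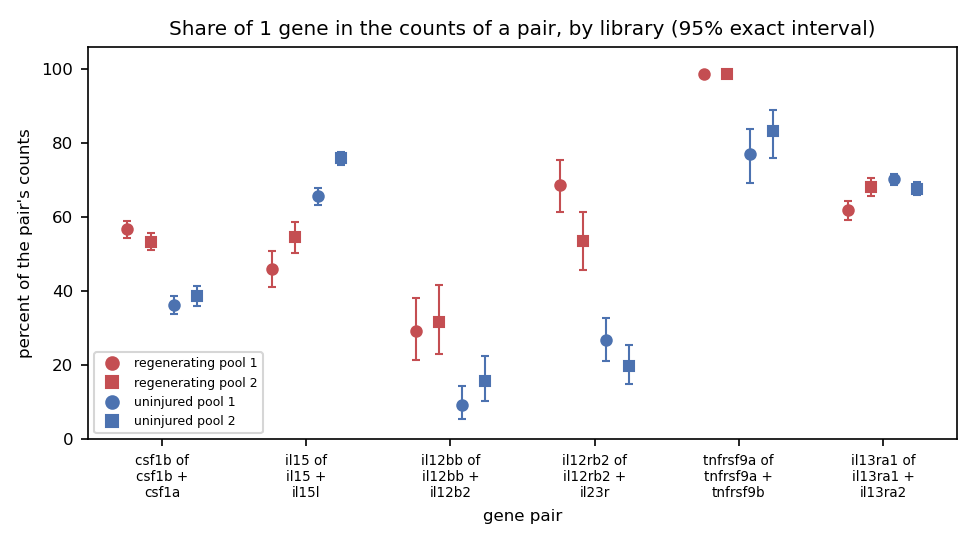
Percentage of the counts of a gene pair that came from the first named gene in each library, with 95% exact binomial intervals; red marks regenerating and blue uninjured pools. The csf1b share is 53.4% and 56.7% in regenerating against 36.2% and 38.7% in uninjured fins, whereas the il13ra1 share of the last pair overlaps between groups.

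Other genes of these pathways were followed in 5 lists, read beside 29.5% of all genes tested called higher and 30.1% called lower. In the Jak-Stat list 11 of 52 tested genes rose and 21 fell, with a median log2 fold change of -0.32. The higher genes numbered 6 without regenerating replicate 1. crlf1b and cntfr, genes of soluble and surface chains for gp130-type cytokines, rose by 1.94 ± 0.15 and 0.99 ± 0.12. crfb12, a class II cytokine receptor gene, and ifngr1, an interferon gamma receptor gene, fell by 2.29 ± 0.22 and 1.66 ± 0.15. In the Nf-kB and Tnf receptor list 7 of 40 rose and 12 fell, with a median of -0.071. The higher genes of that list numbered 3 without regenerating replicate 1, 4 without regenerating replicate 2 and 11 with scaling by total counts, which called 7 lower. There EDA, the gene of the Tnf-type ligand ectodysplasin, rose from 1.45 ± 0.193 to 8.10 ± 1.11 CPM (mean ± SD, n = 2 pools; log2 2.48 ± 0.20), and an NGFR gene (ENSDARG00000088708) rose by 2.03 ± 0.20. cflara, an inhibitor of caspase 8, and MAP3K5, a stress kinase gene, each fell by 1.14, with standard errors of 0.13 and 0.12.

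In the Il1, Toll and inflammasome list 7 of 24 tested genes rose and 6 fell, of which the lower numbered 3 without regenerating replicate 1 and with scaling by total counts. The median log2 fold change was -0.21. The Toll-like receptor gene tlr18 rose from 0.515 ± 0.0604 to 8.12 ± 0.809 CPM (log2 3.98 ± 0.21, adjusted p = 4.67e-06) and the inflammatory caspase gene caspb by 1.54 ± 0.19, while the kinase gene irak1 fell by 1.67 ± 0.28 and IRAK3 by 0.92 ± 0.16. Of 6 Il17 signalling genes 1 was called higher and 4 lower. CEBPD, a transcription factor that Il17 and Il6 are known to induce in mammals, fell from 670 ± 231 to 61.5 ± 11.2 CPM (log2 -3.45 ± 0.27), and USP25 fell by 1.01 ± 0.13. The adaptor gene traf3ip2l had a log2 fold change of 0.49 ± 0.18 (adjusted p = 0.0389), lost without regenerating replicate 1 (0.108), regenerating replicate 2 (0.117) or uninjured replicate 2 (0.122) and with DESeq2 (0.0522). In the Csf and Kit receptor list 4 of 19 rose and 9 fell, with a median of -0.41, and 2 were called higher without regenerating replicate 1. SPI1, a myeloid transcription factor gene (ENSDARG00000000767), rose by 1.46 ± 0.22 and PLCG1 by 1.02 ± 0.14. The KIT and PIK3CD genes fell by 1.73 ± 0.12 and 1.82 ± 0.18. SPI1 and spi1a, which also rose, are in the macrophage list above as well, as is csf1rb. CEBPA and CSF3R are also in the neutrophil list. KIT, SYK and flt3 are also in the mast cell and eosinophil, B cell and dendritic cell lists, in that order.

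Some values rested on 1 pool. il4i1 stood at 8.71 and 2.87 CPM in the regenerating pools, a 3.04-fold spread, and at 3.80 and 3.14 CPM in the uninjured pools. Regenerating replicate 1 alone was high. That library was the higher of its group for most genes of some marker lists, but not of others. The log2 fold change of il4i1, 0.73 ± 0.43 (adjusted p = 0.177), was -0.27 without regenerating replicate 1 and 1.33 without regenerating replicate 2. At this depth 3 counts correspond to 0.0562 to 0.0880 CPM per library, and the 11 untested genes had at most 32 counts in the 4 libraries together. Fitted without the filter, 1 of them, il19l, with 1 and 0 counts in the regenerating pools against 3 and 7, was called lower (adjusted p = 0.0303), and the other 10 did not pass (adjusted p from 0.0538 to 0.929).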

How the data were processed

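RNA was sequenced from 4 pools of zebrafish fins as 50-base single-end Illumina libraries, per the labels' protocols. The deposited tables hold whole-number counts per Ensembl gene that the authors did not normalize. CASAVA, TopHat, edgeR and genome build Zv9 are listed in the submitters' processing notes; which program counted the reads, on which annotation and with which strand rule is not given in the sources used here, so reads of paralogs and of overlapping genes cannot be separated further.

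Gene symbols were looked up by Ensembl ID, which named 20769 genes (64.0%). Genes were filtered with filterByExpr (minimum count 10, minimum total 15), scaled by TMM (factors 0.870 to 1.11) and tested with edgeR's quasi-likelihood test (newer estimation, group as the only term), with Benjamini-Hochberg adjustment over 25594 genes and a threshold of 0.05. Standard errors come from that fit. DESeq2 1.42.0 served as an alternative to edgeR 4.0.16 (limma 3.58.1, R 4.3.3); summaries used Python 3.11.15 with scipy 1.17.1, and plots matplotlib 3.10.9. The pipeline was tested on simulated data. With 2 pools a group an exact permutation test cannot go below p = 0.333, so none was used.

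The genes and lists were chosen with earlier results of these data known. Every tested gene of the rule may be named; those called at 2-fold or more, and the 2 with the smallest adjusted p per role and direction, were given in full. Of the pathway lists the 2 called genes with the smallest adjusted p per direction were named. Marker genes and gene pairs were picked for the text after their values were seen. List symbols were matched exactly or without a paralog suffix.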

Additional observations from a re-analysis of the deposited data

How the results depend on the processing

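Across 11 alternatives, 24 of the 38 called genes, 7 higher and 17 lower, kept their direction and their call wherever they were tested. Scaling by total counts gave 14 higher genes in place of 9, and IL1RAPL1 then had a log2 fold change of 0.20 and il11ra one of 0.14. The marker genes thy1, cd4-1 and TCIRG1, uncalled, also changed sign under it (0.16, 0.044 and 0.071), and thy1 without 1 library (-0.11 to 0.036). IL1RAPL1 also changed sign with RLE size factors (0.0085), without a filter (0.013) and with DESeq2 (0.0086), all without passing. DESeq2 called 10 of these genes higher and 21 lower, and 6836 higher and 6617 lower over all genes. Without a filter edgeR, testing 67, called 9 higher and 30 lower, with il19l added, and 7597 higher and 7485 lower over all genes. Without uninjured replicate 1 the median log2 fold change of the tested genes of the rule was -0.41, against -0.57 in the main fit. With any other single library left out this median was -0.60 to -0.58. Leaving out 1 library at a time gave 8 to 13 higher and 21 to 27 lower genes, 5967 to 7441 higher and 5889 to 7176 lower over all genes, and 16 to 27 higher genes in the pathway lists in place of 30, with 16 without regenerating replicate 1. Uncalled genes changed sign in such fits: tnfsf10l3 (-0.052 to 0.48), TNFRSF21 (-0.37 to 0.017), il12bb (-0.073 to 0.61), il21 (-0.68 to 0.029), IL1RAPL1 (-0.12 to 0.13), il11ra (-0.19 to 0.039) and il4i1 (-0.27 to 1.33); in these fits a lone pool is assumed to vary like the other group. The labels number the pools but do not pair them, and deviations of same-numbered pools correlated at -0.031 across genes. A replicate block gave 11 higher and 28 lower genes here, and 7479 higher and 7632 lower over all genes. Low counts limit the ligand genes most: 10 of the 11 untested genes encode ligands.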
